A study of Mus musculus with 42 samples.

Results

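Collagens are the proteins that give skin its tensile strength, and each collagen molecule is a triple helix of chains encoded by separate genes. The chains described here were found by gene symbol: Col, a number, the letter a and a number, as in Col1a2, leaving out Col17a1, whose chain belongs to the hemidesmosome. On the first array design 41 of 21997 probes, for 37 genes, met this rule, and on the second design 70 of 36924 probes, for 39 genes, did so. Of 40 chains in all, 36 lay on both designs. Col6a3 lay on the first design without a probe on the second, and Col12a1, Col22a1 and Col6a6 lay on the second without a probe on the first. No measured value entered the choice.

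Fibrillar chains assemble into the banded fibrils of the dermis, with types I and III as the bulk and type V at their core. Basement membrane chains form the sheet between epidermis and dermis: type IV makes the network, type VII the anchoring fibrils that fasten it to the dermis, and types XV and XVIII carry glycan chains. The remaining chains include beaded type VI filaments, the network formers VIII and X, and chains that sit on fibril surfaces or cross the cell membrane. Fibroblasts make most dermal collagen, and keratinocytes make part of type IV and most of type VII. By class the first design held 12 fibrillar, 9 basement membrane and 20 other probes, and the second 22, 15 and 33.

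The study followed 2-step skin carcinogenesis in mice, in which DMBA starts tumours and TPA promotes them. The tumours came from adult female Sencar mice given DMBA at 7 to 8 weeks of age and then TPA: 6 squamous cell carcinomas, 10 high-risk papillomas and 9 low-risk papillomas, and 6 samples of untreated normal skin from adults were the baseline. The labels give no strain, sex or age in weeks for the normal skin. Exposure and any difference in animals therefore cannot be told apart in comparisons with it. A further 10 papillomas of unknown risk, from the same strain and treatment, were on the second design and entered no comparison. Whole tissue RNA was set on 2-colour arrays against 1 universal mouse reference RNA. Each value given is the log2 of a sample's signal over that of the reference pool, with the array's median set to 0. Base 2 is assumed, since the deposited values do not state their base, and the fold changes rest on it. The direction of sample over reference is likely rather than stated. Without centring, the medians of 16 keratinocyte genes lay above 0 on all 32 arrays of the first design. Those of 21 internal organ genes lay below 0 on all 32. The level of a probe is therefore relative to the reference pool, and levels of different probes are not set against each other.

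The arrays of the first design held values for 16286 to 21494 probes, and their number limits the precision. Arrays were sorted into 5 sets, A to E, by which probes were empty. Set B held 6 low-risk papillomas, set E held 4 high-risk papillomas and set A held 4 normal skins with 1 high-risk papilloma, while sets C and D were mixed. The SD of an array's values ran from 0.45 to 1.95, and within set C from 0.45 to 0.78. Low-risk papilloma arrays had 1.04 to 1.95 and carcinoma arrays 0.56 to 1.045. Ranges and changes are therefore not on the same scale across sets and groups. The arrays of normal skin 1 and carcinoma 6 were nearly the same, with r = 0.984 across probes, where genes are not independent replicates, and a median absolute difference of 0.065. The collagen calls, the medians of the fibrillar and basement membrane classes and the Col1a2 change in carcinomas are also given without this pair. Several tumours share a code in their labels: high-risk papillomas 1 and 2, 3 and 5, and 6 and 10, and low-risk papillomas 2 and 8. Low-risk papilloma 1 was the mean of 2 arrays with the dyes swapped, which correlated at only 0.306 across probes. Nothing in the labels says that other tumours came from separate animals, so p-values measure the spread between these samples.

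Promoters of 4 chains are printed, because Col10a1 and Col5a3 had the smallest p-values of the collagen probes in carcinomas and in high-risk papillomas over normal skin and because Col4a1 and Col4a2 lie head to head. RefSeq gives them on build GRCm38.p6, 300 bases each, 5′ to 3′ on the gene's own strand. For Col10a1 and Col4a2 these are 250 bases before the start of the gene and 50 after. The genes Col5a3 and Col4a1 reach further into their windows, with their 5′ ends at 20815117 and 11312889. The first is Col10a1 at chr10:34389731-34390030 on the plus strand and the next is Col5a3 at chr9:20815018-20815317 on the minus strand. In both, capitals mark the TATAAA motif, the CCAAT motif and the GGGCGG motif, on either strand.
Col10a1: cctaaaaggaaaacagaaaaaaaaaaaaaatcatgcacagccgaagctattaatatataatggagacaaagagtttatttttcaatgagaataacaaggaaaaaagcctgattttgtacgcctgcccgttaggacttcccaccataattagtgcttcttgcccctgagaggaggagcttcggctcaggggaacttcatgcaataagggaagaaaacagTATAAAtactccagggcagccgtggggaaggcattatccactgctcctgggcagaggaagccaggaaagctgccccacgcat
Col5a3: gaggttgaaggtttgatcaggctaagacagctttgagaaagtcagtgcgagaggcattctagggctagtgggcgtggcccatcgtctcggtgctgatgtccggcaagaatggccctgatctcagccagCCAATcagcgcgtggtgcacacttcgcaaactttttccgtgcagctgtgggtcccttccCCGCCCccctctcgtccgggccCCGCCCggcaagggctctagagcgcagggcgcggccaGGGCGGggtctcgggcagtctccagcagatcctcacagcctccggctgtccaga

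The Col10a1 window holds 1 TATAAA, which begins 32 bases before the start of the gene, and neither of the other motifs. The Col5a3 window holds 1 CCAAT and 3 copies of GGGCGG and no TATAAA. Among 27025 mouse promoters of this length, TATAAA lies in 14.2%, CCAAT in 37.9% and GGGCGG in 35.9%, on either strand. Of 31 collagen chains with a promoter in the table, 4 hold TATAAA, 11 hold CCAAT and 21 hold GGGCGG. No match says only that these letters are not in this window.

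Col4a1 at chr8:11312777-11313076 on the minus strand and Col4a2 at chr8:11312555-11312854 on the plus strand are transcribed away from each other, and their windows share 78 bases, from 11312777 to 11312854. Capitals mark these shared bases, which are the reverse complement of each other on the 2 strands.
Col4a1: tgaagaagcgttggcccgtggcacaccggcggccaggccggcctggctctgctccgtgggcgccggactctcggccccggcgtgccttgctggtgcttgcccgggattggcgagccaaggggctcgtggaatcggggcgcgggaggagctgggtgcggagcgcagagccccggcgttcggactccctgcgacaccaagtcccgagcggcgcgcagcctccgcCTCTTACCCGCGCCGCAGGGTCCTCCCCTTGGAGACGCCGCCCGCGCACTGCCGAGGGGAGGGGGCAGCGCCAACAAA
Col4a2: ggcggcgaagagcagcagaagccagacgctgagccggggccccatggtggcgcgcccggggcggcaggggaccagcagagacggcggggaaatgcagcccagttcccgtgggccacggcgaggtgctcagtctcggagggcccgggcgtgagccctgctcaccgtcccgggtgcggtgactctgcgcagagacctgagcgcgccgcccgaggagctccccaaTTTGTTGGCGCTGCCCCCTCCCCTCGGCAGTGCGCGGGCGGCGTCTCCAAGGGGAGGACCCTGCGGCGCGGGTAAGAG

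A probe was tested if at least 3 replicates of every group and 70% of all 31 replicates had a value, and 40 of the 41 collagen probes did. Col4a6, a minor type IV chain, was left out with 21 replicates measured. Of the 41 probes, 13 had a value in all 31 replicates. Probes were fitted with limma in 1 model of the 4 groups, p-values were adjusted by Benjamini-Hochberg over all 20367 probes tested, and a probe passed below 0.05. Comparisons with normal skin share its 6 samples, so they are not independent of each other.

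Col10a1 was lower in all 3 tumour groups than in normal skin, and no other chain was lower by as much in any of them. It encodes type X collagen, a short-chain network former known from the hypertrophic cartilage of growth plates. In carcinomas 1 to 4 its log2 ratio was 0.43, 0.49, 0.32 and 0.11, against 3.30, 1.96, 3.38, 3.39 and 3.21 in normal skins 2 to 6. High-risk papillomas ran from 0.14 to 1.06 with a median of 0.42 in 6 samples, and low-risk papillomas from -0.37 to 1.22 with a median of 0.75 in 8 samples. Every measured tumour lay below every measured normal skin. The probe was empty in normal skin 1, carcinomas 5 and 6 and high-risk papillomas 6 to 9, which make up set C, and in low-risk papilloma 8.

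The log2 change of Col10a1 against normal skin was -2.71 ± 0.33 in carcinomas (SE, adjusted p = 0.00011), a 6.54-fold lower ratio. It was -2.54 ± 0.30 in high-risk papillomas (adjusted p = 5.13e-05) and -2.37 ± 0.28 in low-risk papillomas (adjusted p = 5.23e-05). In bulk tissue, fewer cells that express a gene and less RNA in each of them cannot be told apart. Within set D the change in 4 carcinomas was -2.96 ± 0.32 against 1 normal skin (adjusted p = 0.0175), which is assumed to vary like the other groups. In 3 low-risk papillomas of set D it was -2.60 against the same normal skin (adjusted p = 0.368), and in 1 high-risk papilloma of set A it was -1.93 against 4 normal skins (adjusted p = 0.0751). Blocking on array set gave -2.68 in carcinomas (adjusted p = 0.0298) and -2.28 in high-risk papillomas (adjusted p = 0.0184), and in low-risk papillomas it was -2.32 and no longer passed (adjusted p = 0.224). Leaving out any 1 sample kept all 3 changes past the test, between -2.98 and -2.21. Since the probe was empty in normal skin 1 and carcinoma 6, the 3 changes were the same without that pair, with adjusted p-values of 3.68e-05, 1.94e-05 and 1.84e-05.

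In carcinomas Col10a1 was the 1 collagen probe of 40 that was lower, and 0 of 40 were higher, against 0.825% lower and 0.221% higher among all probes tested. At an unadjusted p under 0.05, 13 of the 40 collagen probes differed, or 32.5%, against 11.1% of all probes. The groups did not overlap for Col10a1 and Col16a1, or 2 of 40, against 4.02% of all probes. Of the marker lists, 1 of 6 adipocyte probes (Lep, -0.89 ± 0.21, adjusted p = 0.0304) and 1 of 16 keratinocyte probes (Krt15, 8.01-fold lower, adjusted p = 0.0153) fell in carcinomas. None passed as higher in either list, and 2 of 6 adipocyte and 6 of 16 keratinocyte changes lay above 0. In the fibroblast, endothelium, pericyte and smooth muscle, and skeletal muscle lists 0 probes passed in carcinomas over normal skin. Of 7 probes of a cartilage list that holds no collagen, 0 passed in carcinomas or low-risk papillomas and 2 rose in high-risk papillomas, where 2.54% of all probes were higher: 1 of 2 Acan probes by 1.53 ± 0.30 (adjusted p = 0.00362) and Cnmd by 1.38 ± 0.40 (adjusted p = 0.0467). The median change of this list was -0.19 in high-risk papillomas, with 3 of 7 probes above 0, and 0.44 in carcinomas, with 5 of 7 above 0. Per sample the median of this list ran from -0.09 to 0.27 in carcinomas, -0.31 to 0.45 in high-risk papillomas, -0.56 to 0.37 in low-risk papillomas and -0.54 to 0.32 in normal skin. Their part in the Col10a1 difference was not tested.

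**Figure D1:**
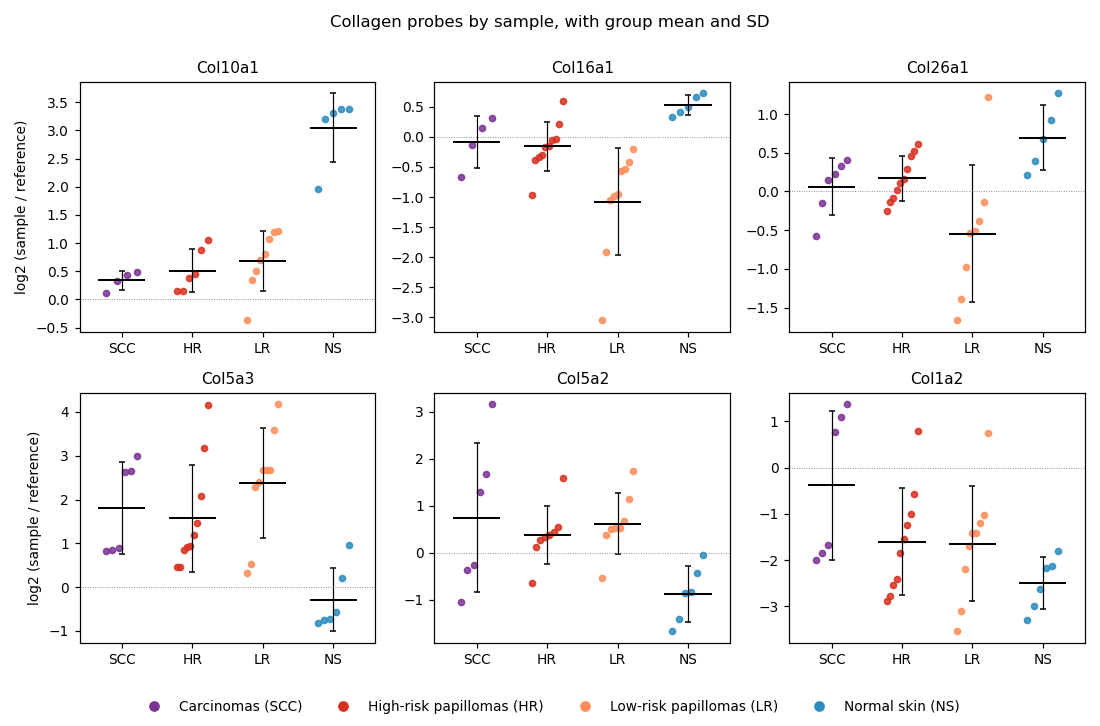
Log2 ratio of sample over reference of 6 collagen probes in carcinomas (SCC), high-risk papillomas (HR), low-risk papillomas (LR) and normal skin (NS); points are samples, bars group means and whiskers SD. Col10a1 separates all measured tumours from normal skin, while Col1a2 and Col5a2 spread widely among carcinomas.

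Among the fibrillar chains, all 12 probes had a positive change in carcinomas over normal skin, with a median of 0.70, against a median of 0.00 and 50.3% positive among all probes tested. None of the 12 passed the test, and 5 had an unadjusted p under 0.05, or 41.7%. The array sets went different ways: within set D 9 of 10 fibrillar probes were positive in 4 carcinomas over 1 normal skin, with a median of 1.17, while within set C 9 of 11 were negative in 2 carcinomas over normal skin 1, with a median of -0.08. Normal skin 1 and carcinoma 6 of set C are the near-identical pair. Without this pair all 11 fibrillar probes then tested were positive in carcinomas, with a median of 1.04, and the medians were 0.67 in high-risk and 0.52 in low-risk papillomas. Blocking on array set left 9 of 12 positive in carcinomas. In high-risk papillomas the median was 0.70 with 9 of 12 positive, and in low-risk papillomas 0.53 with 8 of 12 positive. The medians of all probes lay between -0.01 and 0.02 in all 6 comparisons. The fibrillar medians stayed between 0.40 and 0.81 in these 3 comparisons under scale and quantile normalization, without centring and with the array set as a block. The fibroblast list, 14 tested probes of 11 genes, had a median change of 0.39 in carcinomas, with 11 of 14 positive, -0.02 in high-risk and -0.24 in low-risk papillomas. Per sample its median level ran from -0.28 to 0.18 in carcinomas, -1.24 to -0.01 in high-risk papillomas, -1.01 to 0.25 in low-risk papillomas and -0.74 to -0.08 in normal skin. Its part in the fibrillar values was not tested.

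Col5a3 was the fibrillar probe with the smallest p in all 3 comparisons with normal skin. It encodes a chain of type V collagen, which joins Col5a1 and Col5a2 chains in some tissues. Its ratio ran from 0.82 to 3.00 in the 6 carcinomas with a median of 1.76, from 0.47 to 4.16 in the 10 high-risk papillomas with a median of 1.06, from 0.32 to 4.18 in the 9 low-risk papillomas with a median of 2.68, and from -0.83 to 0.95 in the 6 normal skins with a median of -0.66. Normal skin 1, at 0.95, overlapped with each tumour group, and normal skin 2, at 0.21, was the next highest and lay below all tumours.

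The change of Col5a3 was 2.66 ± 0.56 in low-risk papillomas (adjusted p = 0.00423) and 1.86 ± 0.55 in high-risk papillomas (adjusted p = 0.0444), and both passed. In carcinomas it was 2.09 ± 0.62 and did not pass (adjusted p = 0.0951). It passed there without the near-identical pair (2.52, adjusted p = 0.0366), where it was 2.91 in low-risk (adjusted p = 0.00219) and 2.11 in high-risk papillomas (adjusted p = 0.0238). The high-risk call was lost when any 1 of 12 of the 31 samples was left out, with an adjusted p of up to 0.116, with the replicate number as a block (1.65, adjusted p = 0.085) and with the range of the arrays' database numbers, under 50000 or over, as a block (1.82, adjusted p = 0.219). Without the swapped array it had an adjusted p of 0.052, and with that array as its own sample 0.0503. The low-risk call was lost under scale normalization (2.07, adjusted p = 0.0545). Blocking on array set, neither papilloma group passed (2.36, adjusted p = 0.566 in low-risk, and 2.52, adjusted p = 0.0796 in high-risk papillomas). Where a set holds 1 sample of a group, that sample is assumed to vary like the others. Within set A the 1 high-risk papilloma differed from 4 normal skins by 3.89, and within set C 4 high-risk papillomas differed from 1 normal skin by 0.33 (adjusted p = 0.781). Within set D the change was 2.97 in 3 low-risk papillomas (adjusted p = 0.533) and 2.06 in 4 carcinomas (adjusted p = 0.295) against 1 normal skin, and within set C it was -0.09 in 2 carcinomas against normal skin 1.

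Col5a2, the partner of Col5a1 in most type V molecules, was higher in low-risk papillomas than in normal skin by 1.498 ± 0.47 (adjusted p = 0.049). Its ratio ran from -0.54 to 1.74 in 8 low-risk papillomas with a median of 0.53, against -1.67 to -0.05 with a median of -0.84 in 6 normal skins. The groups overlapped through low-risk papilloma 1, which lay below normal skins 1 and 2. The call was lost when any 1 of 20 of the 31 samples was left out, with an adjusted p of up to 0.123. It was also lost under 9 of 16 other settings, among them scale normalization (1.48, adjusted p = 0.0826), leaving out the swapped array (1.34, adjusted p = 0.135) and blocking by array set (0.77, adjusted p = 0.945). Without the near-identical pair it held (1.585, adjusted p = 0.0463). In carcinomas the change was 1.62 ± 0.50 (adjusted p = 0.124) and in high-risk papillomas 1.25 ± 0.47 (adjusted p = 0.121). Col5a1, required for fibrils to start, had a ratio of 0.45 ± 0.34 in carcinomas (SD, n = 6), -0.18 ± 0.56 in high-risk papillomas (n = 10), -0.10 ± 0.80 in low-risk papillomas (n = 9) and 0.36 ± 0.37 in normal skin (n = 6).

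The carcinomas did not agree on type I collagen. Col1a2, 1 of the 2 chains of the main dermal fibril, had ratios of 0.76, 1.37 and 1.09 in carcinomas 1, 2 and 3 and of -1.85, -1.996 and -1.67 in carcinomas 4, 5 and 6. Normal skin ran from -3.29 to -1.81 with a median of -2.40. So carcinomas 1 to 3 lay far above every normal skin, and carcinomas 4 and 5 lay within its range. Carcinomas 1 to 3 also held the highest ratios of the group for Col5a2, at 1.303, 3.17 and 1.69, against -0.26, -1.04 and -0.36 in carcinomas 4 to 6. Col8a1, a network former of vessels and of the membrane under corneal endothelium, had 1.19, 2.32 and 2.65 in carcinomas 1 to 3 and 0.49, -0.21 and -0.05 in carcinomas 4 to 6. Other chains did not part the carcinomas in this way. Col27a1 was lower in carcinomas 1 to 3, at 0.05, -0.18 and -1.11, against 0.30, 0.705 and 0.765 in carcinomas 4 to 6. Col3a1 ran only from -1.25 to -0.78 over the 6 carcinomas, and Col5a3 was highest in carcinoma 4, at 3.00. Carcinomas 1 to 4 lay in array set D and carcinomas 5 and 6 in set C, and carcinoma 6 is of the near-identical pair. In the labels the tumour codes of carcinomas 1 to 3 begin with 3. Those of carcinomas 4 and 5 begin with 2 and that of carcinoma 6 with 1. Whether the collagen values differ with array set or with the code was not tested. The median of the skeletal muscle list was also higher in carcinomas 1 to 3, at 0.50, 1.06 and 0.41, against 0.11, 0.12 and -0.10 in carcinomas 4 to 6. So were those of the collagen synthesis list, at 0.24, 0.36 and 0.23 against -0.04, 0.00 and 0.09, and of the collagen receptor list, at 0.18, 0.38 and 0.16 against 0.01, 0.14 and -0.04. The fibroblast list did not part the carcinomas in this way. The part of these lists in the collagen values was not tested.

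The change of Col1a2 in carcinomas over normal skin was 2.12 ± 0.66 (adjusted p = 0.12), and it did not pass. Without the near-identical pair it was 2.52 ± 0.72 (adjusted p = 0.0557). Over low-risk papillomas it was 1.27 ± 0.60 (adjusted p = 0.294) and over high-risk papillomas 1.22 ± 0.59 (adjusted p = 0.472). High-risk papillomas ran from -2.88 to 0.80 with a median of -1.69 and low-risk papillomas from -3.54 to 0.74 with a median of -1.42. In each papilloma group 1 sample stood above 0 for Col1a2: high-risk papilloma 1 and low-risk papilloma 2. The same samples were the highest of their groups for Col1a1, at 2.19 and 1.57.

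Col1a1, the other type I chain, was measured in only 3 carcinomas, with 0.67, -0.91 and -0.77 in carcinomas 1, 5 and 6. Its ratio was 0.09 ± 1.18 in 9 high-risk papillomas, -0.41 ± 1.02 in 6 low-risk papillomas and -0.76 ± 0.47 in 4 normal skins (SD). None of its changes passed the test, and the smallest adjusted p was 0.44. Col3a1, the chain of type III collagen, differed less: -1.06 ± 0.17 in 6 carcinomas, -0.75 ± 0.55 in 10 high-risk papillomas, -1.30 ± 0.87 in 8 low-risk papillomas and -1.17 ± 0.20 in 6 normal skins (SD). Its change in carcinomas over normal skin was 0.11 ± 0.33 (adjusted p = 0.977).

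The basement membrane class had medians near those of all probes in the comparisons with normal skin: 0.07 in carcinomas, 0.02 in high-risk papillomas and 0.07 in low-risk papillomas, over 8 probes. Without the near-identical pair they were -0.05, 0.10 and 0.09 over 9 probes. None of the 8 passed in any of the 6 comparisons. Col4a1 and Col4a2 encode the chains of the common type IV molecule, and their overlapping windows are printed above. Col4a1 was 0.17 ± 0.71 in 5 carcinomas, -0.59 ± 0.48 in 7 high-risk papillomas, -0.13 ± 0.42 in 9 low-risk papillomas and -0.65 ± 0.46 in 6 normal skins (SD). Col4a2 was 0.09 ± 0.59 in 6 carcinomas, -0.47 ± 0.55 in 9 high-risk papillomas, -0.31 ± 0.79 in 9 low-risk papillomas and -0.44 ± 0.24 in 6 normal skins (SD). Carcinoma 2 was the highest carcinoma for both, at 1.33 and 0.88. In carcinomas over normal skin the changes were 0.82 ± 0.31 for Col4a1 (adjusted p = 0.265) and 0.53 ± 0.34 for Col4a2 (adjusted p = 0.659).

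None of the minor type IV chains passed. In low-risk papillomas over normal skin Col4a3 differed by -0.84 ± 0.31 (adjusted p = 0.0976), Col4a4 by -0.75 ± 0.33 (adjusted p = 0.166) and Col4a5 by -1.11 ± 0.49 (adjusted p = 0.165). Col4a3 passed without the near-identical pair (-1.07, adjusted p = 0.0268). Col4a6, which was not tested, averaged 0.27 in 8 low-risk papillomas and 0.19 in 5 normal skins. These 4 chains were named after their values were seen.

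Col7a1 encodes the anchoring fibril. Its ratio was 0.00 ± 0.30 in 5 carcinomas, against 0.88 ± 0.66 in 10 high-risk papillomas (SD), a change of -0.88 ± 0.31 (adjusted p = 0.302). All 5 carcinomas lay below the mean of the high-risk papillomas, and the groups overlapped. Low-risk papillomas had 0.51 ± 0.56 (n = 9) and normal skin 0.50 ± 0.50 (n = 6). Col18a1, whose fragment is endostatin, was 0.64 ± 0.61 in carcinomas, 1.28 ± 0.84 in high-risk papillomas, 0.99 ± 0.56 in low-risk papillomas and 0.47 ± 0.55 in normal skin (SD). Its change in high-risk papillomas over normal skin was 0.82 ± 0.34 (adjusted p = 0.171). Col15a1, its relative, was -0.19 ± 0.54, -0.26 ± 0.52 and -0.22 ± 0.83 in carcinomas, high-risk and low-risk papillomas, and -0.92 ± 0.47 in normal skin (SD). None of its changes passed.

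**Figure D2:**
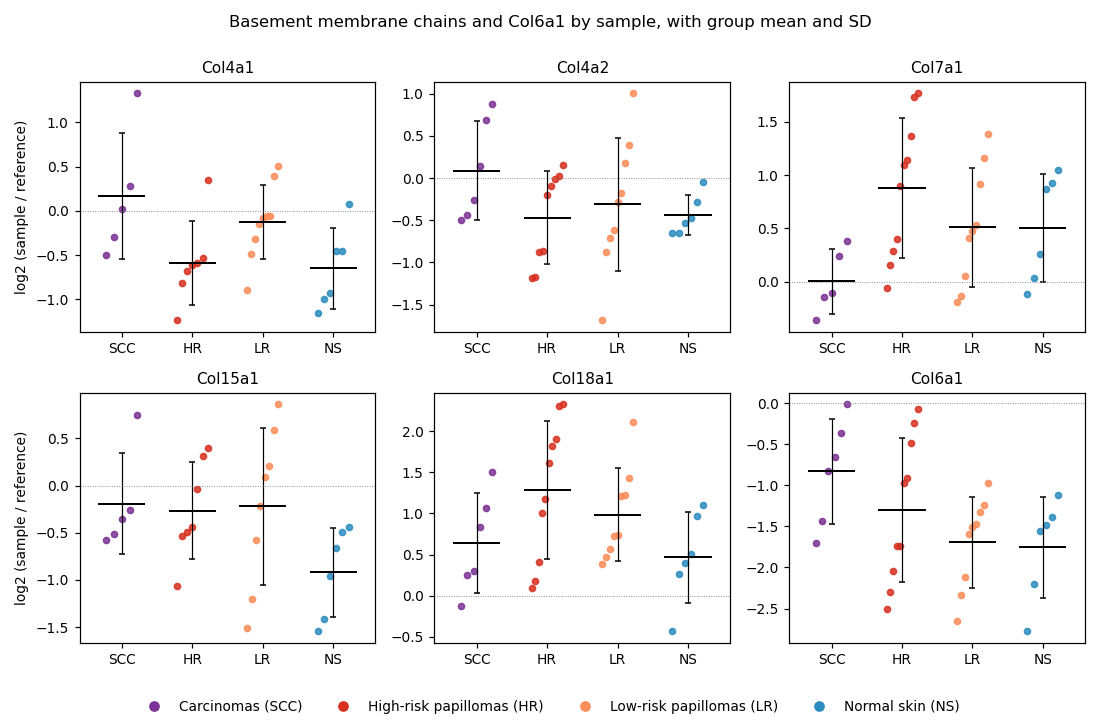
Log2 ratio of sample over reference of 5 basement membrane chains and Col6a1 in carcinomas (SCC), high-risk papillomas (HR), low-risk papillomas (LR) and normal skin (NS); points are samples, bars group means and whiskers SD. The groups overlap for every probe shown.

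Among the other chains, Col16a1 and Col26a1 were lower in low-risk papillomas than in normal skin. Col16a1 sits on fibril surfaces and is known from the zone under the epidermis. Its ratio ran from -3.05 to -0.21 in 9 low-risk papillomas with a median of -0.95, against 0.51, 0.72, 0.33, 0.41 and 0.67 in normal skins 2 to 6. No low-risk papilloma reached any normal skin, and the change was -1.60 ± 0.33 (adjusted p = 0.00407). Carcinomas 1 to 4 had -0.67, 0.14, 0.32 and -0.14, and high-risk papillomas ran from -0.96 to 0.59 with a median of -0.16. The change was -0.61 ± 0.40 in carcinomas (adjusted p = 0.654) and -0.68 ± 0.33 in high-risk papillomas (adjusted p = 0.241). Col26a1 ran from -1.67 to 1.22 in 8 low-risk papillomas with a median of -0.52, against 0.21 to 1.27 in 5 normal skins. The groups overlapped through low-risk papilloma 6, at 1.22. The change was -1.24 ± 0.32 (adjusted p = 0.0159), and it was lost without normal skin 6 (adjusted p = 0.0629) and in a fit of only these groups (adjusted p = 0.11). Without the near-identical pair Col26a1 differed by -1.36 (adjusted p = 0.0141), and Col16a1, empty in both arrays, by -1.60 (adjusted p = 0.00274). Blocking on array set, neither passed: Col16a1 differed by -0.78 (adjusted p = 0.896) and Col26a1 by -0.43 (adjusted p = 0.956).

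In low-risk papillomas, then, 2 of 40 collagen probes were higher, against 3.74% of all probes, and 3 of 40 were lower, against 3.45%. The groups did not overlap for 3 of 40 probes, Col10a1, Col16a1 and Col9a3, against 1.78% of all probes. In high-risk papillomas 1 of 40 was higher, against 2.54%, and 1 of 40 lower, against 2.39%, and 2 of 40 did not overlap, Col10a1 and Col9a3, against 2.29%. Without the near-identical pair the counts past the test were 7 in low-risk papillomas, 2 in high-risk papillomas and 3 in carcinomas. The counts over all probes were then 1569, 1433 and 499. Blocking on array set, the collagen counts were 0, 1 and 1, while the counts over all probes were 5, 30 and 13. Since set B held only low-risk papillomas and 4 of the 6 normal skins lay in set A, group and set are largely the same samples in that comparison.

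Some probes of the marker lists also differed between papillomas and normal skin. In low-risk papillomas Acta1 of skeletal muscle was lower by -4.24 ± 0.88 (adjusted p = 0.00409), and 1 of 6 probes of its list fell. Acta2 of smooth muscle was lower by -2.67 ± 0.56 (adjusted p = 0.00396), 1 of 6 probes. Of 6 adipocyte probes 2 fell and 1 rose, Fabp4, by 2.38 ± 0.62 (adjusted p = 0.0179). Of 16 keratinocyte probes 1 rose, Sprr1b, and 1 fell, Krt15, and the median change was 0.80 with 13 of 16 above 0. The keratinocyte median change was 0.70 in high-risk papillomas, with 14 of 16 above 0, and -0.24 in carcinomas, with 6 of 16 above 0. In high-risk papillomas Acta1 (-3.30 ± 0.88, adjusted p = 0.0274) and Acta2 (-1.94 ± 0.55, adjusted p = 0.0341) were lower too. Per sample, the median of the skeletal muscle list ran from -0.10 to 1.06 in carcinomas, -0.92 to 0.81 in high-risk papillomas, -0.95 to 0.97 in low-risk papillomas and -0.54 to 1.81 in normal skin. The adipocyte median ran from -0.25 to 0.17, -0.78 to 0.30, -0.78 to 0.08 and, in normal skin, -0.15 to 0.55. Their part in the collagen differences was not tested.

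**Figure D3:**
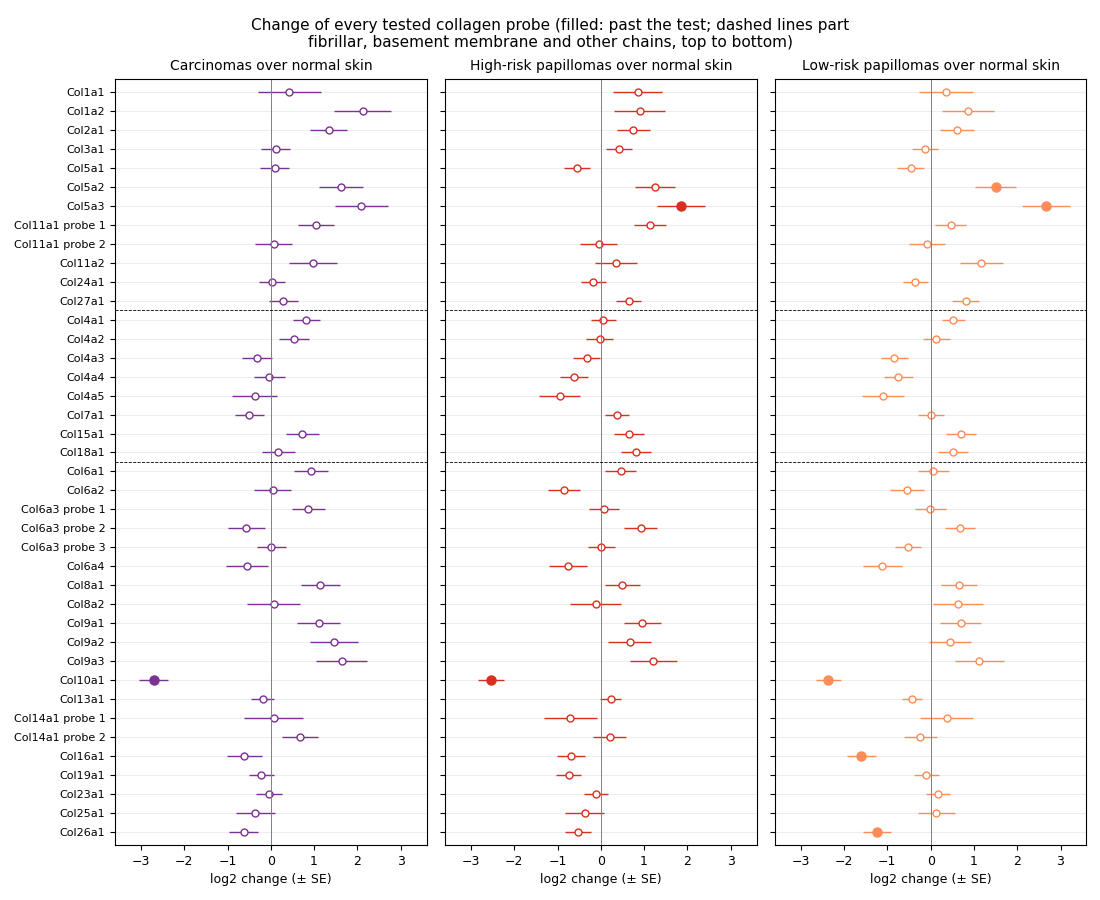
Log2 change with SE of the 40 tested collagen probes in carcinomas, high-risk papillomas and low-risk papillomas over normal skin, by class; filled points passed the test. All 12 fibrillar probes lie above 0 in carcinomas, and Col10a1 is the 1 filled point shared by the 3 panels.

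Between tumour groups no collagen probe passed. This was 0 of 40 for carcinomas over low-risk papillomas, where 1.08% of all probes passed, 0 of 40 for carcinomas over high-risk papillomas, against 0.0295%, and 0 of 40 for high-risk over low-risk papillomas, against 0.594%. At an unadjusted p under 0.05 the counts were 7, 7 and 4 of 40, or 17.5%, 17.5% and 10.0%, against 15.9%, 10.4% and 17.2% of all probes. The median change of the 40 collagen probes was 0.39, 0.19 and 0.11, with 28, 30 and 24 probes above 0. Without low-risk papilloma 6, Col26a1 passed in carcinomas (0.86, adjusted p = 0.0424) and in high-risk papillomas (0.97, adjusted p = 0.0163) over low-risk papillomas, and so did probe 2 of Col14a1 in carcinomas (1.28, adjusted p = 0.0123).

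The smallest p between high-risk and low-risk papillomas was that of Col16a1, with a change of 0.92 ± 0.27 (adjusted p = 0.097). All 10 high-risk papillomas lay above the mean of the low-risk papillomas. Of the samples left out in turn, its call appeared without high-risk papilloma 5 (1.01, adjusted p = 0.0382) and in no other case. Col13a1, a membrane-spanning chain, was 0.54 ± 0.48 in 8 high-risk papillomas and -0.12 ± 0.53 in 9 low-risk papillomas (SD), a change of 0.66 ± 0.22 (adjusted p = 0.133). Col26a1 differed by 0.72 ± 0.26 (adjusted p = 0.168) and Col19a1, a minor fibril-associated chain, by -0.64 ± 0.29 (adjusted p = 0.26).

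Type VI collagen forms beaded filaments around cells from Col6a1, Col6a2 and Col6a3 chains. Col6a1 was -0.83 ± 0.64 in 6 carcinomas, -1.30 ± 0.88 in 10 high-risk papillomas, -1.69 ± 0.56 in 9 low-risk papillomas and -1.75 ± 0.62 in 6 normal skins (SD). Its change in carcinomas over low-risk papillomas was 0.86 ± 0.36 (adjusted p = 0.234), and the groups overlapped. Col6a2 was 0.68 ± 0.57 in 5 carcinomas, -0.22 ± 0.76 in 10 high-risk papillomas, 0.09 ± 0.97 in 8 low-risk papillomas and 0.63 ± 0.28 in 6 normal skins (SD). In carcinomas over high-risk papillomas it differed by 0.89 ± 0.39 (adjusted p = 0.429).

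Col6a3 had 3 probes on the first design, and they disagreed. In carcinomas over low-risk papillomas probe 1 differed by 0.87 ± 0.35 (adjusted p = 0.208), probe 2 by -1.24 ± 0.38 (adjusted p = 0.102) and probe 3 by 0.54 ± 0.32 (adjusted p = 0.423). In carcinomas over high-risk papillomas the changes were 0.79 ± 0.34, -1.48 ± 0.41 and 0.00 ± 0.32, and probe 2 had the smallest p of all collagen probes (adjusted p = 0.206). Probe 2 had 0.56, 0.78, 0.49 and 1.54 in carcinomas 1 to 4, against 1.00 to 3.33 with a median of 2.19 in 6 high-risk papillomas and 0.97 to 3.30 with a median of 2.16 in 9 low-risk papillomas. The changes of probes 1 and 2 had opposite signs and lay more than 1 apart in 3 of 6 comparisons, those of probes 2 and 3 in 2 of 6, and those of probes 1 and 3 in 0 of 6. The mean of the 3 probes differed by -0.09 in carcinomas over low-risk papillomas and by -0.04 over high-risk papillomas, and no direction is given for Col6a3.

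Col14a1, a fibril-surface chain of the dermis, had 2 probes that disagreed in high-risk over low-risk papillomas, with -1.08 ± 0.55 (adjusted p = 0.312) and 0.44 ± 0.36 (adjusted p = 0.536). Probe 1 held a ratio of -5.62 in high-risk papilloma 4 and of 3.04 in low-risk papilloma 9, while its other values in these groups ran from -0.76 to 0.18 and from -0.65 to 1.22. In carcinomas over low-risk papillomas the probes differed by -0.31 and 0.90. Col11a1, a minor fibrillar chain best known from cartilage, had 2 probes with changes of 1.13 ± 0.37 (adjusted p = 0.0816) and -0.05 ± 0.43 (adjusted p = 0.97) in high-risk papillomas over normal skin. Probe 1 ran from -0.41 to 1.42 in 6 high-risk papillomas, against -0.72 to -0.28 in 5 normal skins, and probe 2 from 0.01 to 1.42, against 0.07 to 0.87. Probe 1 was measured in high-risk papillomas 1 to 5 and 10 and in normal skins 2 to 6. Probe 2 was measured in high-risk papillomas 1, 2, 5, 7, 8 and 9 and in normal skins 1 and 3 to 6. The changes of the 2 probes are therefore over different samples, and whether they disagree on shared samples was not tested.

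**Figure D4:**
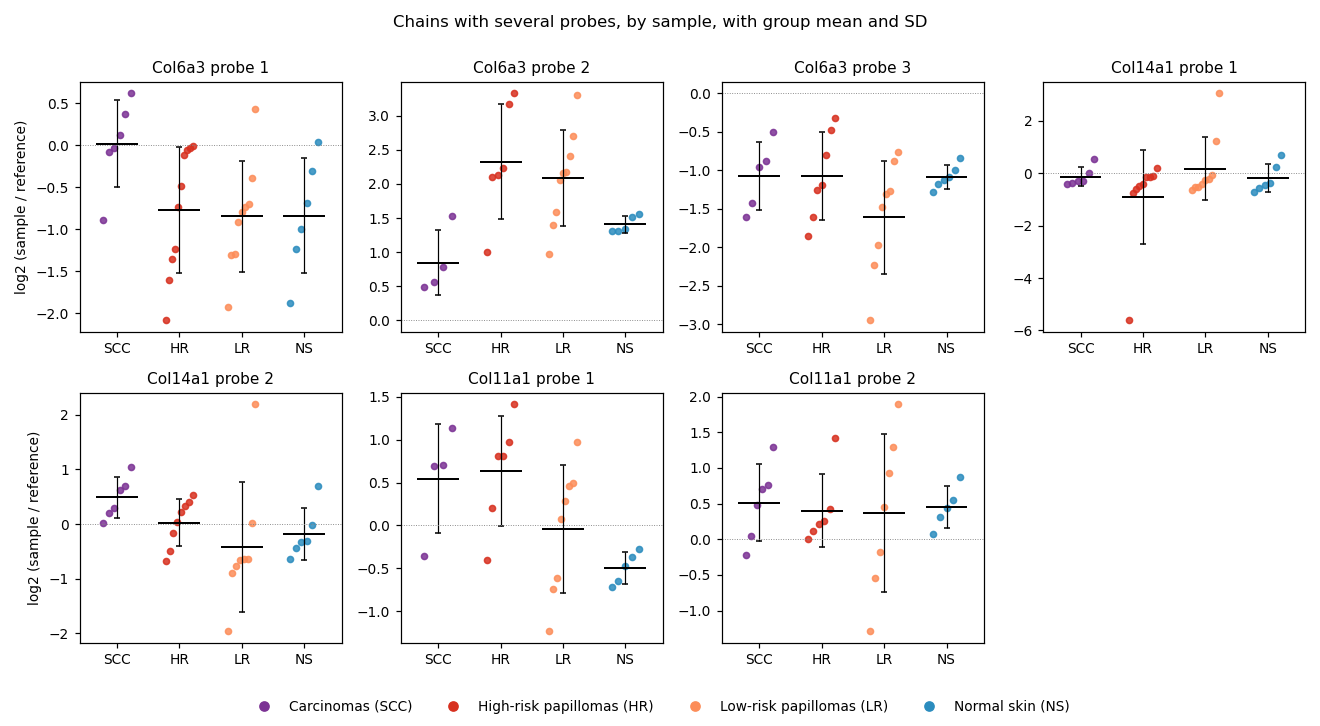
Log2 ratio of sample over reference of the probes of Col6a3, Col14a1 and Col11a1 in carcinomas (SCC), high-risk papillomas (HR), low-risk papillomas (LR) and normal skin (NS); points are samples, bars group means and whiskers SD. Probe 2 of Col6a3 is lowest in carcinomas, where probe 1 is highest.

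Chains known from cartilage did not all go one way in carcinomas over normal skin. Col10a1 was lower, as described above, and the changes of the 2 Col11a1 probes were 1.04 (adjusted p = 0.293) and 0.06 (adjusted p = 0.991). The others given here were positive without passing, and they were named after their values were seen. Col2a1, the main fibrillar chain of cartilage, differed by 1.34 ± 0.43 (adjusted p = 0.141). It had 0.57, 2.04 and 1.40 in carcinomas 1 to 3 and -0.58, -0.42 and -1.39 in carcinomas 4 to 6, against -1.52 to -0.48 in normal skin. The type IX chains, which coat type II fibrils, differed by 1.10 ± 0.49 for Col9a1 (adjusted p = 0.368), 1.46 ± 0.55 for Col9a2 (adjusted p = 0.259) and 1.64 ± 0.59 for Col9a3 (adjusted p = 0.225). Col9a3 stood at 3.63 in carcinoma 1 and at 0.38, 0.13, -0.40 and 0.47 in carcinomas 2 to 5. It ran from -1.65 to -0.29 in normal skins 2 to 5, so carcinoma 1 weighs heavily in this change. Col2a1 passed without the near-identical pair (1.58, adjusted p = 0.0445).

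The remaining chains did not pass in any of the 6 comparisons. For Col27a1, a fibrillar chain, the smallest adjusted p was 0.0995, with 0.80 ± 0.30 in low-risk papillomas over normal skin, and it passed without the near-identical pair (1.00, adjusted p = 0.0362). For Col6a4 it was 0.124, with -1.11 ± 0.45 in the same comparison, and it passed without low-risk papilloma 2 (-1.42, adjusted p = 0.0194). Among Col8a2, Col23a1, Col24a1 and Col25a1 the smallest adjusted p was 0.486.

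The enzymes and chaperones of collagen synthesis were followed as a list of 31 genes, of which 24 were on the array and 19 tested with 21 probes. In carcinomas over normal skin 0 of 21 passed, with a median of 0.27 and 17 of 21 above 0. In high-risk papillomas 1 of 21 fell, against 2.39% of all probes, and 0 rose, against 2.54%. In low-risk papillomas 1 of 21 fell, against 3.45% of all probes, and 2 rose, against 3.74%. P4ha2, a prolyl hydroxylase subunit, was lower in both papilloma groups, by -0.80 ± 0.22 in high-risk (adjusted p = 0.0319) and by -0.97 ± 0.23 in low-risk papillomas (adjusted p = 0.00927). In low-risk papillomas Serpinh1, the collagen chaperone Hsp47, was higher by 1.96 ± 0.46 (adjusted p = 0.0106), and P4hb, the shared prolyl hydroxylase subunit, by 1.07 ± 0.29 (adjusted p = 0.0203). With the array set as a block, 30 of all probes passed in high-risk and 5 in low-risk papillomas over normal skin. The changes of P4ha2, Serpinh1 and P4hb under that setting are not given here.

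Serpinh1 was also the 1 synthesis gene past the test between tumour groups. This was 1 of 21 probes in carcinomas over low-risk papillomas, against 1.08% of all probes. Serpinh1 averaged 0.41 in 4 carcinomas and 2.53 in 9 low-risk papillomas, a change of -2.12 ± 0.49 (adjusted p = 0.0351). In high-risk over low-risk papillomas it differed by -1.61 ± 0.43 (adjusted p = 0.0733). With the array set as a block, 0 of all probes passed in carcinomas over low-risk papillomas, so this call was lost there. Set B, with 6 of the 9 low-risk papillomas, held 0 carcinomas. P4ha1, another prolyl hydroxylase subunit, differed by 0.91 ± 0.25 in carcinomas over low-risk papillomas (adjusted p = 0.0681). Pcolce, which aids the trimming of procollagen, differed by 1.23 ± 0.41 in carcinomas over high-risk papillomas (adjusted p = 0.285). Of 10 collagen receptors 4 were tested, and 0 of 4 passed in any comparison. The largest change among them was that of Itga2, the platelet and keratinocyte receptor, at 0.81 ± 0.30 in high-risk papillomas over normal skin (adjusted p = 0.113).

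The 10 unknown papillomas were normalized apart from the other arrays, so their values stand alone. The SD of an array's values ran from 1.14 to 2.39. It was highest on unknown papilloma 4, where 28.6% of probes were empty. Of 70 collagen probes 41 had a value on all 10 arrays. On every array with a value, 15 probes lay above 0 and 5 below 0, relative to the reference. Col7a1 was above 0 on all 10 arrays by both of its probes, from 1.08 to 6.33 with a median of 3.05 and from 0.02 to 3.10 with a median of 1.43. Unknown papilloma 4 was the highest by both. Col12a1, a fibril-surface chain absent from the first design, ran from 0.03 to 2.39 with a median of 0.69 on 9 arrays by probe 1, and from -0.12 to 8.78 with a median of 1.60 by probe 2. Col10a1 ran from 0.02 to 2.53 with a median of 0.98 on 7 arrays.

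The type I chains varied widely among the unknown papillomas. Col1a1 ran from -1.73 to 2.42 with a median of -0.22 on 9 arrays, and Col1a2 from -2.44 to 1.202 with a median of -0.51 on 10. Unknown papillomas 6, 7 and 8 were above 0 for both chains, and unknown papillomas 1, 2, 3, 5 and 10 below 0 for both. Col4a1 ran from -2.48 to 1.24 with a median of -0.06 and Col4a2 from -1.58 to 2.63 with a median of -0.28. Unknown papilloma 4 was the highest and unknown papilloma 2 the lowest for both. On this design 20 chains had more than 1 probe, and their levels are given apart. Of 47 pairs of probes of a chain, 24 had a median difference over 1. Probes 1 and 2 of Col2a1 had opposite signs on 7 of 10 arrays, and those of Col18a1 on 6 of 10. For Col5a2 probe 1 ran from 0.23 to 4.67, probe 2 from -1.03 to 2.30 and probe 3 from -1.48 to 2.58.

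**Figure D5:**
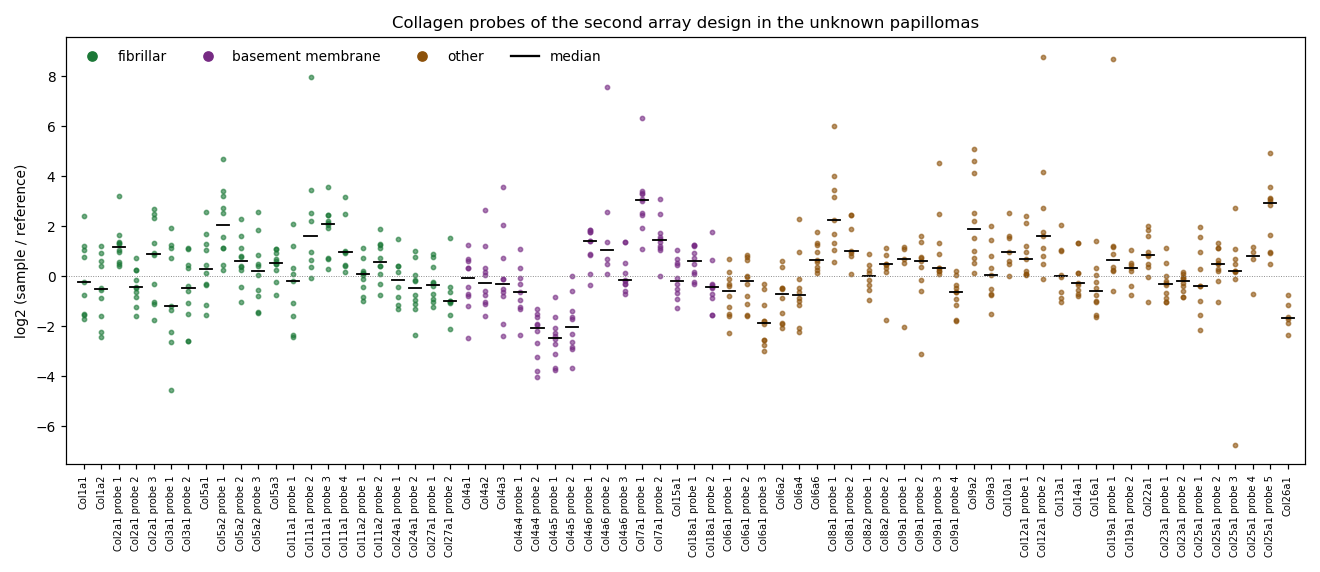
Log2 ratio of sample over reference of the 70 collagen probes of the second design in the 10 unknown papillomas; points are arrays, black bars medians and colours the classes. Both Col7a1 probes lie above 0 on all 10 arrays.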

How the data were processed

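RNA of 42 samples was measured on 2-colour arrays. The authors deposited log ratios of the 2 channels as a table for each design. The labels put the reference RNA in Cy5 on all arrays but 1, whose dyes were swapped. The base and direction of these deposited log2 values are not stated, and background correction, normalization and spot filters are not given in the sources used here. All arrays but the swapped one were negated and every array was centred on its median. The swapped array was averaged with the array of the same labelled tumour. Probes were named from the platform annotation, with symbols updated through RefSeq, and probes of a gene were kept apart. The 31 replicates were fitted with limma 3.58.1 in R 4.3.3 (lmFit, contrasts, eBayes), with Benjamini-Hochberg adjustment over all 20367 probes tested. Tables were made with pandas 2.3.3.

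The collagen members, the lists and the tests were chosen with earlier results of these data known. The rule for named probes took every collagen probe past the test, the 4 with the smallest p in each comparison, 15 main chains of skin, and genes whose probes disagreed, with opposite signs or a single call and changes over 1 apart. Up to 4 synthesis and receptor genes with the smallest p were named. Other probes were named after their values were seen: Col2a1, Col8a1, the type IX chains, Col27a1, Col6a4, the 4 chains named with them, Col4a3, Col4a4, Col4a5 and Col4a6. Marker lists covered fibroblast, endothelium, pericyte and smooth muscle, adipocyte, skeletal muscle, keratinocyte, leukocyte, cartilage and internal organ genes. In lists not described above, 1 leukocyte probe (Cd3e) and 1 internal organ probe (Umod) fell in low-risk papillomas, while 1 internal organ probe (Mbp) rose and 1 fibroblast (Dcn), 1 adipocyte (Lep) and 1 keratinocyte probe (Krt15) fell in high-risk papillomas, where the keratinocyte probe Sprr1b rose, all over normal skin. The keratinocyte probe Dsc1 was lower in carcinomas than in low-risk papillomas. No endothelium probe passed in any comparison.

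Replicate numbers did not pair the samples: across groups, deviations from the group means had a median r of -0.03 in 37 same-numbered pairs and of 0.01 in 317 others. The consensus correlation of tumours that share a code was -0.02. Alternatives were other scalings, filters and probe summaries, treatments of the swapped array, blocks, weights and leaving out samples.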

Additional observations from a re-analysis of the deposited data

Results flagged for a closer look

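Only the collagen probes that the naming rule took were scanned, and some of these were picked by their values. In 8 of 99 of their groups of 4 to 10 samples, or 8.08%, 1 sample stood far from the rest of its group. The 5% that chance gives is not a fair baseline for probes picked in this way. Other collagen probes were not scanned, such as Col9a3, which had 3.63 in carcinoma 1. Col1a1 was 1.57 in low-risk papilloma 2, while the other 5 values of the 6 ran from -1.16 to -0.33. Col3a1 was 0.51 in high-risk papilloma 1, against -1.49 to -0.56 in the others, and probe 2 of Col11a1 was 1.42 there, against 0.01 to 0.42. Col15a1 was 0.74 in carcinoma 2, against -0.58 to -0.26 in the other carcinomas measured. Col6a2 was -2.28 in high-risk papilloma 3, against -0.37 to 0.37 in the others. Col10a1 was 1.96 in normal skin 3, against 3.21 to 3.39 in the other normal skins measured. Probe 1 of Col14a1 was -5.62 in high-risk papilloma 4, against -0.76 to 0.18 in the others, and 3.04 in low-risk papilloma 9, against -0.65 to 1.22.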

How the results depend on the processing

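No change of a collagen probe that passed the test turned its direction under any alternative run. The count of collagen probes past the test in carcinomas over normal skin was 1. It was 2 with quantile normalization, 2 with only the groups compared, 15 with array weights, 3 without normal skin 1 and carcinoma 6, and 0 within set C or with probes measured in every replicate, where Col10a1 was not tested. In high-risk papillomas over normal skin the count was 2. It was 1 without the swapped array or with it as its own sample, 1 with array set, database number range or replicate block, 1 with probes measured in every replicate, 0 within set C, 4 with only the groups compared and 10 with array weights. In low-risk papillomas over normal skin the count was 5. It was 3 with scale normalization, 1 with probes measured in every replicate, 0 with the array set as a block, 0 within set D and 12 with array weights. Carcinomas over low-risk papillomas had 0, and 3 with array weights. Leaving out 1 sample at a time gave 1 to 2 in carcinomas, 1 to 3 in high-risk papillomas and 3 to 7 in low-risk papillomas over normal skin. The count of 2 in carcinomas came without normal skin 1, carcinoma 5 or carcinoma 6, and the count of 3 in low-risk papillomas without normal skin 6. It gave 0 to 2 for carcinomas over low-risk papillomas, 0 to 0 over high-risk papillomas and 0 to 1 for high-risk over low-risk papillomas. The replicate block left 1 and 5 in carcinomas and low-risk papillomas over normal skin. Over all probes, carcinomas over normal skin had 45 higher and 168 lower, against 918 in all under quantile scaling, 727 under scale normalization, 13 on blocking by array set and 3347 with array weights. Without normal skin 1 and carcinoma 6 this count over all probes was 499. Causes were not tested. The number of arrays and the empty probes limit the precision.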
